A study of Mus musculus with 19 samples.

Results

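The transmembrane semaphorins of classes 4 to 6 were followed in retinal ganglion cells (RGCs) whose axons stay on their own side of the brain (iRGCs) and in those whose axons cross at the optic chiasm (cRGCs). The 10 members were taken by gene symbol (Sema4b, Sema4c, Sema4d, Sema4f, Sema4g, Sema5a, Sema5b, Sema6a, Sema6c and Sema6d) out of 47069 genes in the count tables. Polyadenylated RNA was sequenced from sorted GFP+ cells of mouse retinas at E16.5, when many axons reach the chiasm, with 3 libraries for each population and between 28193178 and 33638083 reads counted on genes per library. The animals are given as C57/DBA F1 embryos of both sexes, pooled, with the genotype WT. The paper names C57/DBA F1 hybrids for its electroporation embryos, and the embryos used for sorting carried the transgenes described below.

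All embryos carried a Cre-dependent reporter, the nuclear envelope protein Sun1 fused to GFP and driven by the CAG promoter from the Rosa26 locus. In the iRGC libraries, labeled Sert, the reporter was recombined by Slc6a4-Cre, a transgenic line that carries the control regions of the serotonin transporter gene. In the cRGC libraries, labeled Brn3b, it was recombined by Pou4f2-Cre, which sits in the locus of a transcription factor used by most RGCs, and the ventrotemporal retina, where iRGCs arise, was cut away before sorting. Since Cre acts permanently, descendants of a cell that once expressed the driver are sorted too. The number of embryos behind each RNA library was not given, so p-values measure the spread between these libraries only.

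Semaphorins are guidance proteins that share an extracellular sema domain, and those of classes 4 to 6 span the membrane, so that a cell can present them to its neighbors and in some cases also receive signals through their cytoplasmic tails. Plexins are their main receptors: class 4 proteins act largely through B-type plexins, class 6 proteins through A-type plexins, and class 5 proteins, which carry thrombospondin repeats, restrain neurite growth in the retina through A-type plexins. At the optic chiasm, midline cells present Sema6d together with Nrcam to arriving RGC axons, and in the inner retina Sema6a and its plexins set the layers in which neurites stop.

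The driver gene of the iRGC line did not separate the libraries by their labels. Slc6a4, the serotonin transporter that the iRGC driver reports, stood at 2.06, 33.3 and 116 CPM (TMM-scaled counts on a gene per 1000000 counts on all genes) in iRGC replicates 1 to 3 and at 48.1, 35.4 and 30.5 CPM in cRGC replicates 1 to 3. The iRGC library labeled replicate 1 was thus below every cRGC library, iRGC replicate 2 lay within the range of the cRGC libraries and iRGC replicate 3 alone stood above them, and the difference did not pass (log2 fold change, always of iRGCs over cRGCs, 0.41, SE 0.929, adjusted p = 0.768). Single adjusted p values come from the quasi-likelihood test of edgeR, adjusted after Benjamini and Hochberg over all tested genes. The lowest and highest adjusted p over the alternatives of a gene also take in 2 other tests, DESeq2 and limma voom. The other genes behind the labels did separate the populations. Zic2, which directs axons to the ipsilateral side, stood at 133, 173 and 157 CPM in iRGCs and at 57.0, 60.2 and 65.6 CPM in cRGCs, and Pou4f1, a transcription factor of cRGCs, at 107, 116 and 181 CPM against 860.4, 671 and 431 CPM. Pou4f2 itself was lower in iRGCs, with 74.6, 133 and 98.1 CPM against 191, 196 and 293 CPM. Each fold change of the semaphorins is therefore also given without iRGC replicate 1, and the counts also without iRGC replicate 2 and with iRGC replicate 3 alone.

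The sorted populations also differed in markers of other cell types. Of 17 markers of retinal progenitors, 15 were higher in iRGCs, 0 were lower and 2 (Pax6 and Vim) did not pass the threshold, and their summed level was between 9191 and 11443 CPM in iRGC libraries and between 2254 and 3515 CPM in cRGC libraries. Ccnd1, a cyclin of dividing cells, was the most abundant of them, Sfrp2 and Fgf15 had the largest log2 fold changes (2.92 and 2.73), and the defining markers Sox2 and Hes1 had log2 fold changes of 2.62 and 2.38. Of 17 markers of RGCs, 16 were lower in iRGCs and 1 (Thy1) did not pass. Their summed level was 2655, 3717 and 5633 CPM in iRGC replicates 1 to 3 and 14742, 13369 and 16488 CPM in cRGC replicates 1 to 3, with Nefm the most abundant and Pou4f1 (-2.28) the farthest apart. The defining RGC genes Isl1 and Rbpms were present in every iRGC library and lower than in cRGCs (log2 fold changes of -1.94 and -2.00). Whether the cell mixtures differed, and their share in the differences given below, was not tested. In bulk libraries fewer cells of a type and less RNA per cell cannot be told apart.

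All 10 semaphorins passed the filter on low counts, and in all 10 the 3 iRGC libraries did not overlap the 3 cRGC libraries. Sema4d and Sema5b were higher in iRGCs, and Sema4b, Sema4c, Sema4f, Sema4g, Sema5a, Sema6a, Sema6c and Sema6d were lower. These 2 higher and 8 lower genes (adjusted p under 0.1) stand beside 46.4% of the 15941 tested genes that were called, 23.3% higher and 23.1% lower. Over all tested genes the libraries of the populations did not overlap in 55.3%, 27.1% being higher and 28.2% lower in iRGCs. Their median log2 fold change was -0.86, beside -0.003 for all tested genes. Past an absolute log2 fold change of 1 there were 2 higher and 5 lower (Sema4f, Sema4g, Sema6a, Sema6c and Sema6d), where the shares of all tested genes were 12.1% and 11.0%. By class, 1 of the 5 class 4 members was higher and 4 lower, class 5 had 1 of each, and all 3 class 6 members were lower. Without iRGC replicate 1 the counts were 2 higher and 7 lower, Sema5a being the gene that no longer passed, and without iRGC replicate 2 they were again 2 and 7. With iRGC replicate 3 alone against the 3 cRGC libraries, an alternative chosen after the values were seen in which the lone library is assumed to vary like the cRGC libraries, there were 2 higher and 6 lower, Sema4b (log2 fold change -0.54, adjusted p = 0.136) and Sema5a (-0.13, adjusted p = 0.580) not passing. Sema4d (1.84) and Sema5b (2.68) were higher in that comparison too.

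**Figure D1:**
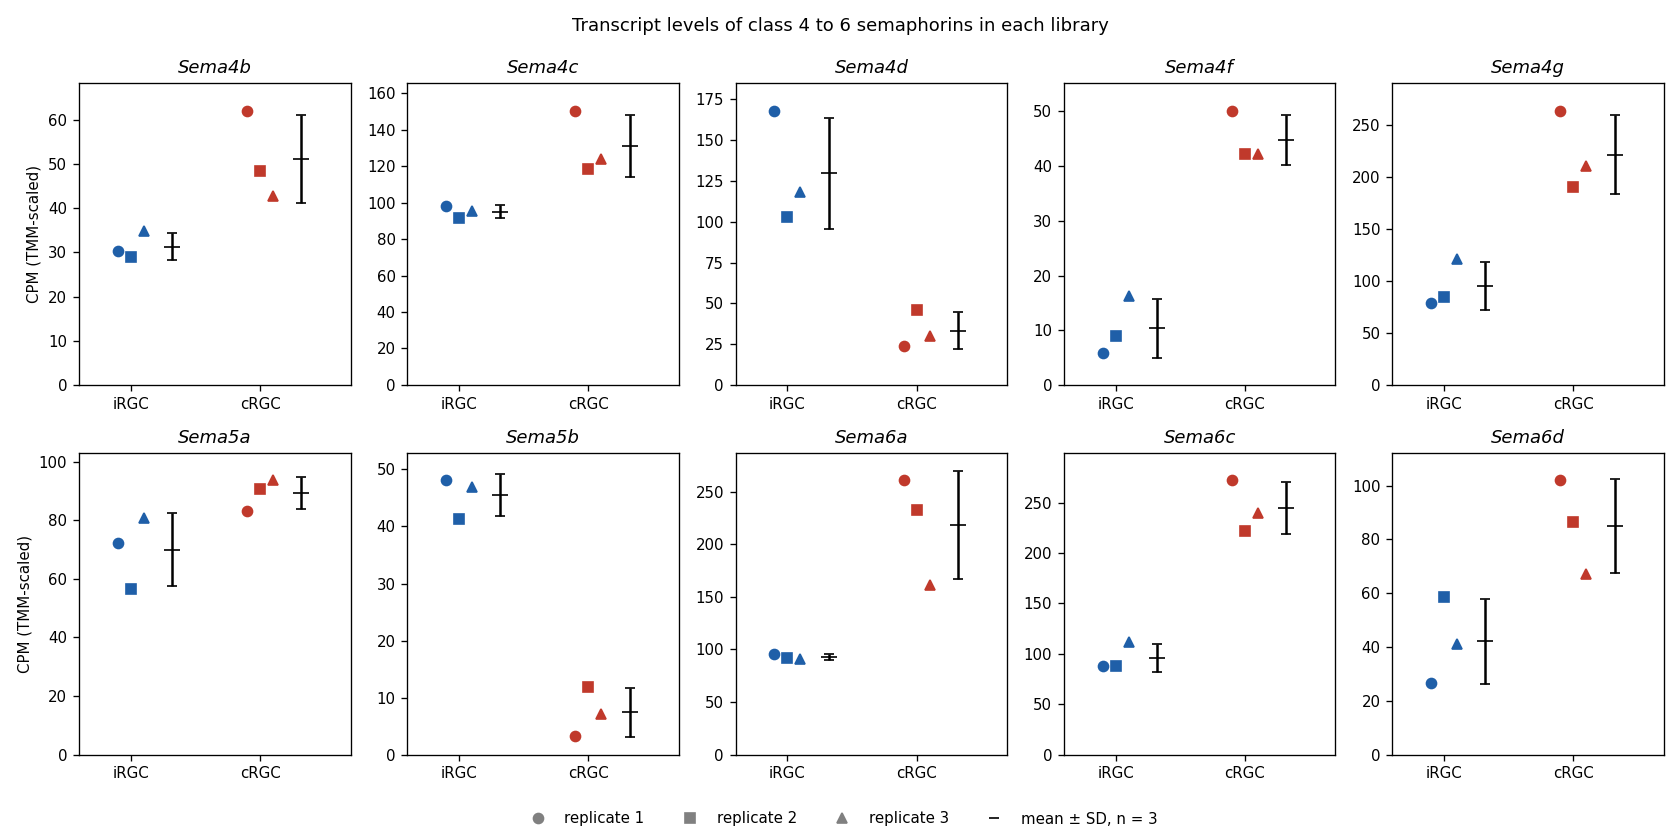
Level of each of the 10 semaphorins in CPM scaled by TMM factors (vertical axes, each from 0), with 1 point per library for iRGCs (blue) and cRGCs (red) and the mean ± SD (n = 3) beside the points. In every panel the blue and red points are apart, with Sema4d and Sema5b higher in iRGCs and the other 8 genes lower.

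Sema4d and Sema5b ran against the other members. Sema4d (chr13:51685529-51793747, minus strand, GRCm38, as for all coordinates) encodes the ligand also called CD100, which acts on Plxnb1 and can be shed from the cell surface. Its level was 168, 103 and 118 CPM in iRGC replicates 1 to 3 and 23.7, 46.2 and 30.1 CPM in cRGC replicates 1 to 3. The highest value was that of iRGC replicate 1, the library with the least Slc6a4, but the other 2 iRGC libraries were also above all 3 cRGC libraries. The means were 129.8 ± 34.0 and 33.3 ± 11.6 CPM (SD, n = 3), a 3.89-fold difference (log2 fold change 1.96, SE 0.267, adjusted p = 6.00e-04). Without iRGC replicate 1 the log2 fold change was 1.73 (adjusted p = 0.00188), and over all alternatives the adjusted p lay between 1.98e-12 and 0.00485.

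Sema5b (chr16:35541145-35664732, plus strand) encodes a class 5 protein that keeps retinal neurites out of the outer retina together with Sema5a. It stood at 48.1, 41.3 and 47.0 CPM in iRGCs and at 3.19, 11.8 and 7.19 CPM in cRGCs, the latter resting on 83, 343 and 223 reads. The iRGC libraries were close to one another, while the cRGC libraries differed among themselves by more than their mean. Means of 45.5 ± 3.67 and 7.40 ± 4.32 CPM gave the largest change among the 10 genes, 6.13-fold (log2 fold change 2.62, SE 0.395, adjusted p = 9.68e-04). It was 2.57 without iRGC replicate 1 (adjusted p = 0.00362, and between 5.52e-11 and 0.00680 over all alternatives).

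Among the class 4 genes that were lower in iRGCs, Sema4f (chr6:82911885-82939769, minus strand), whose protein binds the synaptic scaffold PSD-95, moved most. Its level was 5.88, 8.85 and 16.3 CPM in iRGCs and 50.1, 42.1 and 42.2 CPM in cRGCs. The 3 iRGC values were all far below the lowest cRGC value, and iRGC replicate 3, the library with the most RGC marker RNA of the iRGC libraries, was the highest of them. The level was 4.33-fold higher in cRGCs (means 10.3 ± 5.36 and 44.8 ± 4.58 CPM, log2 fold change -2.12, SE 0.333, adjusted p = 0.00120), and the log2 fold change was -1.83 without iRGC replicate 1 and -1.45 with iRGC replicate 3 alone.

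Sema4g (chr19:44989101-45003397, plus strand) and Sema4c are partners in cerebellar development, where both act through Plxnb2. Sema4g stood at 79.2, 84.4 and 121 CPM in iRGCs and at 264, 191 and 210.5 CPM in cRGCs. Again iRGC replicate 3 was nearest to the cRGC libraries without reaching them. Its level was 2.33-fold higher in cRGCs (95.0 ± 22.9 against 222 ± 37.9 CPM, log2 fold change -1.22, SE 0.188, adjusted p = 0.00105), with -1.11 when iRGC replicate 1 was left out.

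The remaining class 4 members differed less. Sema4b (chr7:80186841-80226527, plus strand), which takes part in synapse assembly, had 30.3, 28.9 and 34.7 CPM in iRGCs and 62.0, 48.4 and 42.7 CPM in cRGCs. Here the spread was mostly among cRGC libraries, and the difference was 1.63-fold (log2 fold change -0.70, SE 0.168, adjusted p = 0.00947, and -0.68 without iRGC replicate 1). For Sema4c (chr1:36548639-36558349, minus strand) the values were 98.1, 91.3 and 95.5 CPM in iRGCs and 150.4, 118 and 124 CPM in cRGCs. These iRGC libraries were within 10 CPM of each other and below every cRGC library, a 1.38-fold difference (log2 fold change -0.46, SE 0.120, adjusted p = 0.0140, and -0.49 without iRGC replicate 1). Of its exonic bases, 7.27% are shared with D430040D24Rik on the opposite strand, and the strand setting of the counting was not given in the sources used here, so reads in that stretch could come from either gene. With library totals in place of TMM scaling the log2 fold change of Sema4c was -0.25 and no longer passed (adjusted p = 0.109, the largest over its alternatives, which went down to 0.00387).

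Sema5a (chr15:32244810-32696341, plus strand), which is found along the optic nerve and holds RGC axons within it, showed the smallest difference of the 10. It stood at 72.5, 56.5 and 81.0 CPM in iRGCs and at 83.3, 90.9 and 93.7 CPM in cRGCs. The highest iRGC library was only just below the lowest cRGC library. The level was 1.28-fold higher in cRGCs (70.0 ± 12.4 against 89.3 ± 5.41 CPM, log2 fold change -0.35, SE 0.146, adjusted p = 0.0891). It did not pass when any of 4 libraries was left out: iRGC replicate 1 (log2 fold change -0.38, adjusted p = 0.126), iRGC replicate 2 (-0.22, adjusted p = 0.255), cRGC replicate 2 (-0.33, adjusted p = 0.196) or cRGC replicate 3 (-0.31, adjusted p = 0.222). Nor did it pass with library totals in place of TMM scaling (-0.15, adjusted p = 0.422), and over all alternatives the adjusted p lay between 0.0292 and 0.580.

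The 3 class 6 genes were all lower in iRGCs, by 2.02-fold to 2.55-fold. Sema6c (chr3:95160457-95174024, plus strand) had 88.1, 87.5 and 111 CPM in iRGCs and 272, 222 and 239 CPM in cRGCs. Even the lowest cRGC library was well above the highest iRGC library, and the difference of 2.55-fold had the smallest adjusted p among the members (log2 fold change -1.35, SE 0.135, adjusted p = 2.22e-04, and -1.30 without iRGC replicate 1). Sema6a (chr18:47235598-47368870, minus strand), the ligand of Plxna2 and Plxna4 in retinal layering, stood at 95.6, 91.5 and 91.0 CPM in iRGCs and at 261, 233 and 161 CPM in cRGCs.

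Its iRGC libraries were nearly alike, whereas cRGC replicate 3 lay well below the other 2 cRGC libraries. The difference was 2.35-fold (92.7 ± 2.48 against 218 ± 51.3 CPM, log2 fold change -1.23, SE 0.168, adjusted p = 6.14e-04, and -1.26 without iRGC replicate 1). Sema6d (chr2:124089969-124667770, plus strand), the Plxna1 ligand that chiasm cells also present, had 26.8, 58.4 and 41.3 CPM in iRGCs and 102, 86.3 and 67.1 CPM in cRGCs. Its libraries varied widely within each population and came closest between iRGC replicate 2 and cRGC replicate 3. The level was 2.02-fold higher in cRGCs (log2 fold change -1.01, SE 0.269, adjusted p = 0.0157), and leaving out iRGC replicate 1 gave -0.77 (adjusted p = 0.0261, and between 6.94e-04 and 0.0584 over all alternatives).

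To show what lies before genes that moved in opposite directions, the 250 bases upstream of a RefSeq start site (GRCm38.p6) are printed for the 2 members that were higher in iRGCs and for the class 4 and class 6 members that differed most in the other direction. In all, 15 such windows of 9 of the 10 members were searched, and Sema6a was left out of this search. Each is written in the direction of the gene, and capitals mark the letters of a motif that was searched for.
Sema5b, chr16:35541112-35541361, plus strand: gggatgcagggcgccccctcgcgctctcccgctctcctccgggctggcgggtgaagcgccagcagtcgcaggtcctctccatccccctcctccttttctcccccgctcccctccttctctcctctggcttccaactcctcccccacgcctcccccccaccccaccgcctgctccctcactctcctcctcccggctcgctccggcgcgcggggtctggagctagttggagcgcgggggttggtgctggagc
Sema4d, chr13:51756684-51756933, minus strand: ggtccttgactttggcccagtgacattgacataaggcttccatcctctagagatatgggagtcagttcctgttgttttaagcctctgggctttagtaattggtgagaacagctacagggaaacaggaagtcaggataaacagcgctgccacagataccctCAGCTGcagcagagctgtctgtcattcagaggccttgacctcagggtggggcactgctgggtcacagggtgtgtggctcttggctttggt
Sema4f, chr6:82939770-82940019, minus strand: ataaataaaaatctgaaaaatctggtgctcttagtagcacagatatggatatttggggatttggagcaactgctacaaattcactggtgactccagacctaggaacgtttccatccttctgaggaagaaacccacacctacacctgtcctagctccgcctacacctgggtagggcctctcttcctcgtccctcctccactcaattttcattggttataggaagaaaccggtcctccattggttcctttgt
Sema6c, chr3:95160170-95160419, plus strand: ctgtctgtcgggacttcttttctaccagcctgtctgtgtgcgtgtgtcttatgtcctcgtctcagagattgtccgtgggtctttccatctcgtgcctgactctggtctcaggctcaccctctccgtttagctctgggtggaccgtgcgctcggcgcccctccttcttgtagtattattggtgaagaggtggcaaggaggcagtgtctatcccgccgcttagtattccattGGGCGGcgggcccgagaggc

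The upstream window of Sema5b was the richest in G and C of these 4, with 72.0% GC and 19 CpG dinucleotides. That of Sema4d, 1 of 3 windows of this gene, had 52.0% GC and 1 CpG, that of Sema4f 46.0% and 4, and that of Sema6c 57.6% and 15, beside medians of 52.4% and 6 over 32851 windows of all genes. On both strands, the GC box GGGCGG was found in 9 of the 15 windows of the members (32.7% of all windows hold it), among them Sema6c with its first base 20 bases before the start. The E-box CAGCTG was found in 3 windows (13.0% of all), in the printed window of Sema4d with its first base 90 bases before the start. Neither other window of Sema4d held an E-box, and 1 held a GC box with its first base 14 bases before the start. All 3 windows of Sema4d lie within the annotated span of the gene. The Zic motif CAGCAGG was found in 1 window (8.44% of all), a second window of Sema6c. The LIM-homeodomain core TAATTA was in 0 of the 15 (4.84% of all). A match here is a description of the letters and not of a bound site. No promoter window of Sema6a is given.

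Levels of different genes were compared per kilobase of exon, taking the union of all annotated exons as the length. In iRGCs the highest were Sema4c (20.7 ± 0.753 CPM per kilobase, SD, n = 3), Sema4d (16.9 ± 4.43) and Sema6c (16.1 ± 2.31), and neighbors within these 3 overlapped. Below them came Sema4g (11.0 ± 2.65) and Sema6a (10.6 ± 0.283), and then Sema5b, Sema4b, Sema6d, Sema5a and Sema4f, from 6.42 down to 1.95 CPM per kilobase, where each gene overlapped the next. In cRGCs Sema6c stood alone at the top (41.2 ± 4.29), followed by Sema4c (28.5 ± 3.73), Sema4g (25.6 ± 4.37) and Sema6a (24.9 ± 5.85), which overlapped. The middle group was Sema4b, Sema4f and Sema6d (9.04, 8.48 and 8.06 CPM per kilobase), and Sema5a (4.78), Sema4d (4.34) and Sema5b (1.05 ± 0.611) were the lowest. Sema4d thus ranked near the top in iRGCs and near the bottom in cRGCs. The order depends on gene length: by the longest annotated transcript Sema4d came first in iRGCs (29.0 CPM per kilobase) and Sema4g in cRGCs (48.7, beside 48.0 for Sema6c).

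Added over the 10 genes, the level per kilobase was 97.8, 89.4 and 103 in iRGC replicates 1 to 3 and 177, 149 and 142 in cRGC replicates 1 to 3. No iRGC library reached the lowest cRGC library in this sum. The makeup of the sum differed as well. Class 6 genes made up 31.7% ± 2.74 of it in iRGCs and 47.5% ± 1.41 in cRGCs, class 4 genes 57.8% ± 2.25 and 48.7% ± 1.37, and class 5 genes 10.5% ± 0.517 and 3.80% ± 0.895 (SD, n = 3). Sema4d alone took 17.4% ± 4.29 of the sum in iRGCs and 2.85% ± 1.15 in cRGCs, and Sema5b took 6.63% ± 0.283 and 0.697% ± 0.434. Sema6c went the other way, with 16.6% in iRGCs and 26.5% in cRGCs. Being shares of 1 sum, these values are not independent of each other.

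**Figure D2:**
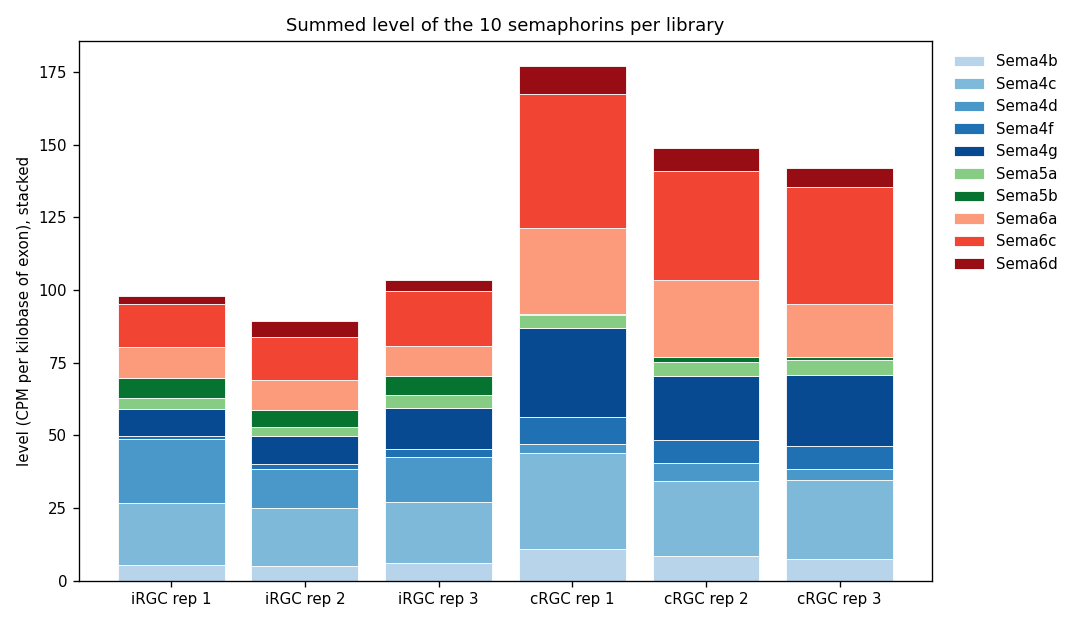
Stacked levels of the 10 semaphorins in CPM per kilobase of exon (vertical axis, from 0) for each of the 6 libraries, class 4 in blue, class 5 in green and class 6 in red. The cRGC bars are taller, up to 177 against at most 103 in iRGCs, and the red part is larger in them, while the segment of Sema4d is larger in iRGCs.

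The level of the semaphorins was also set against the summed level of the marker lists, library by library. Per 1000 CPM of RGC markers, 8 of the 10 semaphorins were higher in every iRGC library than in any cRGC library, and 2 (Sema4f and Sema6a) overlapped. The RGC marker sum was itself lower in iRGCs (means of 4001 against 14866 CPM), so this division raises every gene there alike. The share of all tested genes that separate in this ratio is not given here, so the count of 8 shows nothing particular to the semaphorins. For Sema6c this ratio was 33.2, 23.6 and 19.8 in iRGCs and 18.5, 16.6 and 14.5 in cRGCs. Sema6c was lower in iRGCs by less than the marker sum, so this order, the opposite of that in CPM, was set by the division. For Sema4f the ratio was 2.21, 2.38 and 2.89 against 3.40, 3.15 and 2.56, with no separation.

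Per 1000 CPM of progenitor markers, the same 8 genes that were lower in CPM were lower in every iRGC library, and Sema4d and Sema5b parted. The progenitor marker sum was higher in iRGCs (means of 10348 against 2944 CPM), so this division lowers every gene there and these 8 had to stay lower. The share of all tested genes that were lower in this ratio is not given here. Sema4d had 14.7, 9.90 and 12.9 CPM per 1000 CPM of progenitor markers in iRGCs and 10.5, 13.1 and 9.82 in cRGCs, and these values overlapped (means 12.5 ± 2.41 and 11.2 ± 1.75, SD, n = 3). Sema5b was above every cRGC library in all 3 iRGC libraries (4.20, 3.96 and 5.11 against 1.41, 3.36 and 2.35). The RGC list holds genes such as Pou4f1 that are known as genes of cRGCs, so such ratios are other quantities and not corrected levels.

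**Figure D3:**
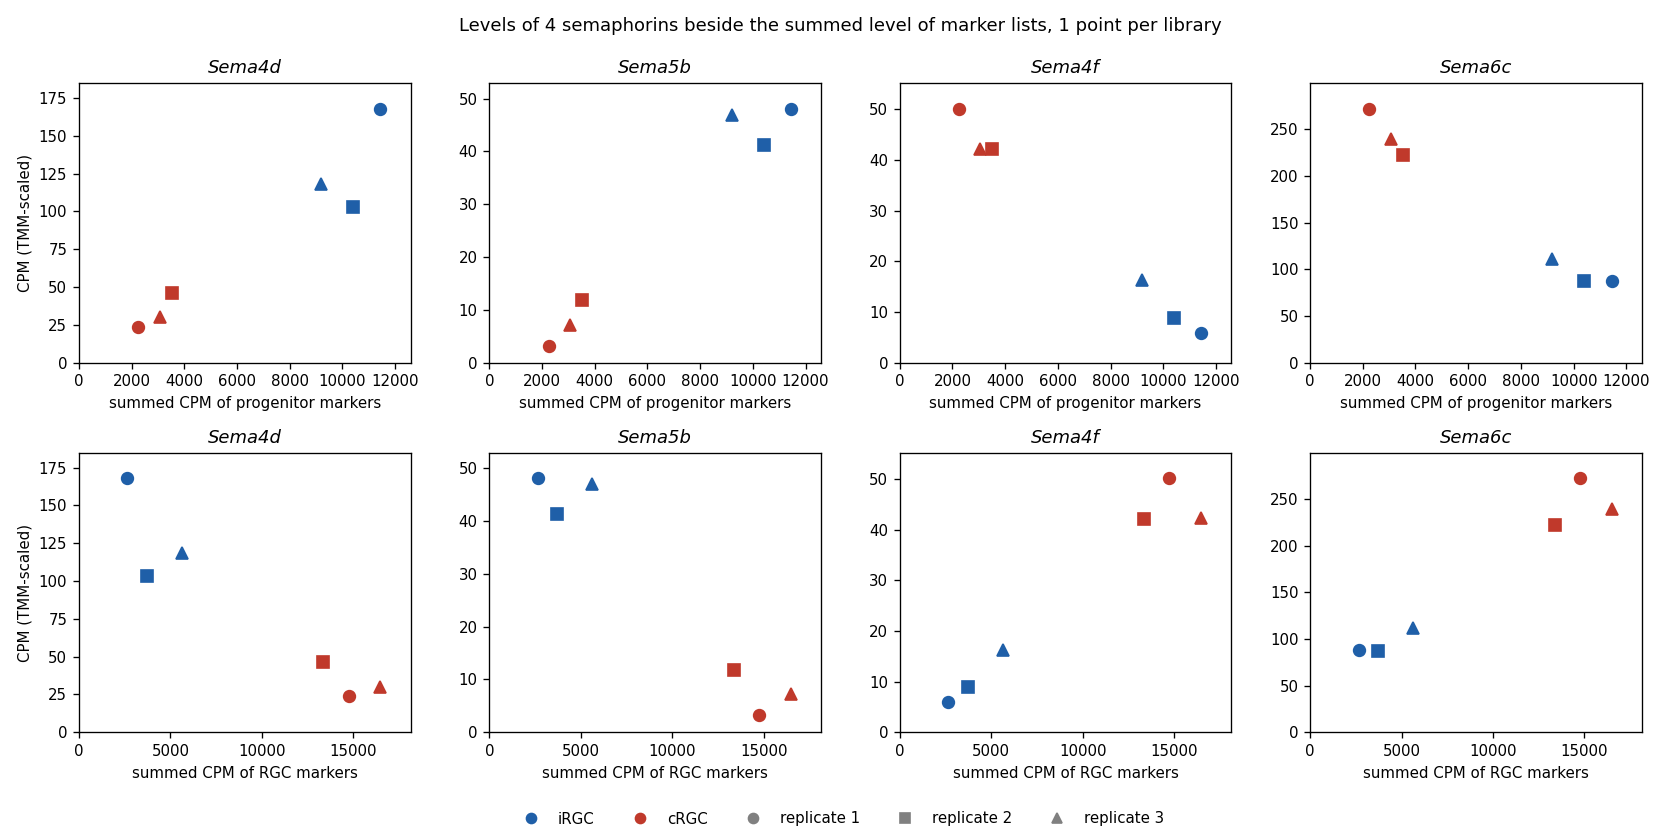
CPM of Sema4d, Sema5b, Sema4f and Sema6c (vertical axes, from 0) against the summed CPM of 17 progenitor markers (top row) and of 17 RGC markers (bottom row), 1 point per library, iRGCs in blue and cRGCs in red. The libraries form a cluster per population in every panel, so no correlation is given.

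Markers of vessels, glia and other retinal cells were counted in the same libraries. Of 12 endothelial genes, 7 could be tested and all 7 were higher in iRGCs, and the summed level was 481, 775 and 436 CPM in iRGC replicates 1 to 3 and 89.1, 109 and 72.0 CPM in cRGC replicates 1 to 3. The most abundant of them was Kdr (365, 319.8 and 418 CPM in iRGCs), whereas the defining genes Pecam1 (9.64, 52.9 and 0.283 CPM in iRGCs, largest in iRGC replicate 2) and Cdh5 (15.2, 81.1 and 0.157 CPM) were at or near 0 in cRGCs, Cdh5 with 0 reads in all 3 libraries, where a count of 0 allows up to 3. Without iRGC replicate 2 the count of higher endothelial genes was 4 of 7, Pecam1 (log2 fold change 4.33, adjusted p = 0.127), Esam (2.03, adjusted p = 0.363) and Egfl7 (0.67, adjusted p = 0.545) not passing, and with iRGC replicate 3 alone it was 2 of 7. Without iRGC replicate 3 it was 11 of 11. Egfl7 also did not pass without cRGC replicate 1, 2 or 3 (adjusted p = 0.109, 0.111 and 0.106), nor Esam without cRGC replicate 2 or 3 (0.171 and 0.188). Cldn5 (log2 fold change 3.38) and Cd34 (6.95, and 5.40 without iRGC replicate 2) were also higher in iRGCs. Of 9 mural genes, 6 could be tested and 4 were higher, with sums of 135, 277 and 121 CPM against 21.4, 32.4 and 23.2 CPM, led by Notch3 and with the largest differences in Rgs5 (log2 fold change 7.76) and Tagln (3.81, and 2.73 without iRGC replicate 3). Of the exonic bases of Tagln, 67.9% are shared with genes on the opposite strand, so its reads could come from those genes. The share was 25.7% for Fgf15, 23.4% for Ccnd1, 19.2% for Nefm, 16.1% for Sfrp2, 15.1% for Csf1r, 15.0% for Mical1 and 10.7% for Plxna1. For Egfl7 it was 11.2%, with genes on both strands. The value of Rgs5 rested on iRGC replicate 2 (3.76, 93.6 and 2.24 CPM in iRGCs) and was 4.32 without it. The defining genes of mural cells were Pdgfrb (2.54), Rgs5 and Cspg4, the latter not past the threshold. Cspg4 passed as higher without cRGC replicate 2 (log2 fold change 5.60, adjusted p = 0.0303) or iRGC replicate 1 (3.49, adjusted p = 0.0785). Without iRGC replicate 2 it was 1.62 (adjusted p = 0.511).

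Of 11 microglial genes, 9 could be tested and 6 were higher, with sums of 33.7, 43.2 and 26.8 CPM in iRGCs against 7.26, 8.17 and 4.90 CPM, led by Cd68, and neither Aif1 nor Cx3cr1 passed the threshold. In the leave-one-out fits Cx3cr1 passed as higher without cRGC replicate 2 (log2 fold change 7.29, adjusted p = 0.00487) or iRGC replicate 1 (3.46, adjusted p = 0.0965). Mrc1 (4.46, 8.05 and 1.04 CPM against 0, 0 and 0.258 CPM) and Csf1r (7.64, 8.48 and 5.64 CPM against 0, 1.24 and 0.161 CPM) were farthest apart, at counts in cRGCs too low for a stable fold. The count of higher microglial genes fell to 3 without iRGC replicate 2 or iRGC replicate 3 and to 0 with iRGC replicate 3 alone, and Cd68 passed in the leave-one-out fits only without cRGC replicate 1. Photoreceptor precursor genes (8 of 9 tested, 7 higher and 1, Rxrg, lower) summed to 1071, 836 and 955 CPM against 197, 333 and 242 CPM, led by Otx2, and Rbp3 (2.53) and Neurod4 (2.44) differed most. Amacrine and horizontal cell genes (11 tested, 7 higher, 0 lower) summed to 556, 531 and 588 CPM against 363, 395 and 489.7 CPM, led by Onecut2, with Tfap2c (2.47) and Ptf1a (2.38) farthest apart. Of the exonic bases of Ptf1a, 40.4% are shared with an antisense gene, and of those of Onecut1 52.8% with a noncoding gene on the same strand. The horizontal cell factors Onecut2 (log2 fold change -0.56, adjusted p = 0.117) and Onecut1 (-0.58, adjusted p = 0.103) did not pass and had negative values. Onecut2 passed as lower in iRGCs without cRGC replicate 1, cRGC replicate 2 or iRGC replicate 2 (log2 fold changes of -0.70, -0.70 and -0.74), and Onecut1 without cRGC replicate 1 or iRGC replicate 2 (-0.73 in both fits). Pigment epithelium genes (5 of 8 tested, 1, Rlbp1, higher) stayed at 5.36, 10.7 and 10.1 CPM against 2.23, 5.10 and 3.58 CPM, and Rpe65 had 0 reads in 5 of the 6 libraries. The part of any of these cells in the levels of Sema4d and Sema5b was not tested. Without iRGC replicate 2 the log2 fold changes of these 2 genes were 2.10 (adjusted p = 0.00216) and 2.68 (adjusted p = 0.00419).

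The rest of the semaphorin pathway was described through 66 genes in 6 lists, of which 63 could be tested. In iRGCs 10 were higher, 35 were lower and 18 did not pass, beside 23.3% and 23.1% of all tested genes. The median log2 fold change was -0.54, and the libraries did not overlap in 50 of the 63, beside 55.3% of all tested genes. With library totals in place of TMM scaling 18 were higher and 32 lower, beside 5100 and 2842 of all 15941 genes tested. With iRGC replicate 3 alone 6 of 64 were higher and 29 lower, beside 16.1% and 15.8% of all genes tested. Of the other genes of classes 4 and 6, Sema4a (11.3, 16.3 and 23.6 CPM in iRGCs, 41.6, 36.3 and 41.1 CPM in cRGCs) was lower by 1.21 on the log2 scale (log2 fold change -1.21, SE 0.252, adjusted p = 0.00478). Sema6b (12.9, 14.1 and 19.4 CPM against 46.3, 39.6 and 41.8 CPM) had -1.46 (SE 0.190, adjusted p = 4.92e-04). Like the 3 class 6 members, both were lower in every iRGC library than in any cRGC library.

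Of the 8 secreted or GPI-anchored semaphorins of classes 3 and 7, 1 was higher, 3 were lower and 4 did not pass, a share of calls near the 46.4% of all tested genes. Sema3a, the founding repellent of the family, was lower in iRGCs (21.1, 31.9 and 39.9 CPM against 96.9, 97.7 and 128 CPM, log2 fold change -1.79, adjusted p = 4.65e-04). Sema7a, the GPI-anchored member, was lower as well (16.2, 26.5 and 25.5 CPM against 53.9, 47.9 and 50.1 CPM, log2 fold change -1.15, adjusted p = 0.00179). Sema3e, the ligand of Plxnd1, had 21.2, 10.9 and 20.1 CPM in iRGCs and 87.4, 75.1 and 20.7 CPM in cRGCs, so that cRGC replicate 3 lay at the level of iRGCs (log2 fold change -1.81, SE 0.480, adjusted p = 0.0154). Sema3g was low throughout and higher in iRGCs (6.26, 8.85 and 2.11 CPM against 2.11, 1.76 and 1.45 CPM, log2 fold change 1.69, adjusted p = 0.0431), with iRGC replicate 3 no higher than cRGC replicate 1, and it did not pass without iRGC replicate 2 (log2 fold change 1.23, adjusted p = 0.196), cRGC replicate 2 (1.72, adjusted p = 0.104) or cRGC replicate 3 (1.59, adjusted p = 0.128). Sema3f, at 96 to 121 CPM in all libraries, had a log2 fold change of 0.22 (adjusted p = 0.138), and Sema3b, Sema3c and Sema3d were under 5 CPM and did not pass.

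Of 9 plexins, the receptors, 1 was higher in iRGCs, 3 were lower and 5 did not pass, a share of calls near the 46.4% of all tested genes. Plxna1, which receives Sema6d and class 5 ligands, was lower in iRGCs (207, 205 and 229 CPM against 516, 414 and 493 CPM, log2 fold change -1.15, SE 0.117, adjusted p = 2.33e-04). Plxna3, which shares the class 5 ligands, was lower too (150.3, 201 and 214 CPM against 520.2, 426 and 486 CPM, log2 fold change -1.34, SE 0.150, adjusted p = 2.85e-04). Plxnb1, the receptor of Sema4d, was lower by a smaller amount (334, 368 and 318 CPM against 482, 455 and 521 CPM, log2 fold change -0.51, SE 0.105, adjusted p = 0.00448).

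Libraries of the populations did not overlap in 7 of the 9 plexins, beside 55.3% of all tested genes. Plxnb2, the receptor of Sema4c and Sema4g, was measured at 393, 401 and 372 CPM in iRGCs and 341, 342 and 360.1 CPM in cRGCs (log2 fold change 0.16, adjusted p = 0.205). The Sema6a receptors Plxna2 (log2 fold change 0.47, adjusted p = 0.135) and Plxna4 (0.13, adjusted p = 0.786) did not pass, nor did Plxnc1 (0.04, adjusted p = 0.818), the receptor of Sema7a, and Plxnb3, which was below 1 CPM in every library. In the leave-one-out fits Plxna2 passed as higher in iRGCs only without cRGC replicate 2 (log2 fold change 0.61, adjusted p = 0.0907). Plxnd1 was higher in iRGCs (87.3, 174 and 63.5 CPM against 12.02, 24.8 and 15.5 CPM, log2 fold change 2.63, SE 0.398, adjusted p = 9.74e-04). Without iRGC replicate 2, its highest library, the log2 fold change was 2.11 (adjusted p = 0.00249). Plxnd1 is known from vessels as well as neurons, and the part of vessel cells in its level was not tested.

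**Figure D4:**
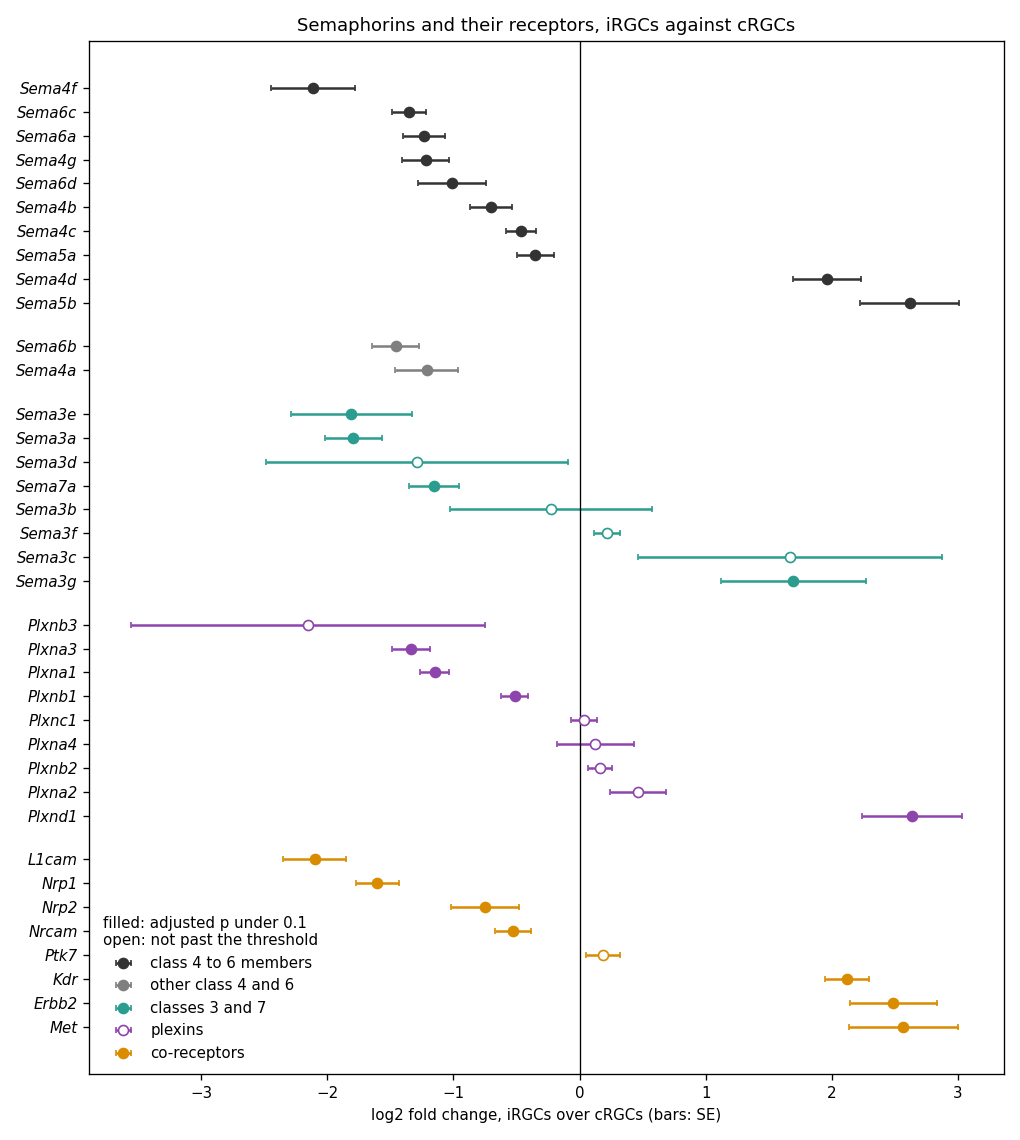
Log2 fold changes of iRGCs over cRGCs (horizontal axis, bars are SE from the edgeR fit, 3 libraries per population) for the 10 semaphorins, the other class 4 and 6 genes, classes 3 and 7, the plexins and the co-receptors, filled where the adjusted p was under 0.1. Most filled points lie left of 0, and Sema4d, Sema5b, Sema3g, Plxnd1, Kdr, Erbb2 and Met lie to the right.

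Of 11 co-receptor genes 8 could be tested, Cd72, Trem2 and Tyrobp being too low, and 3 were higher in iRGCs, 4 were lower and 1 (Ptk7) did not pass, beside the 46.4% of all tested genes that were called in either direction. L1cam, an adhesion protein that joins neuropilin in Sema3a reception, was lower in iRGCs (191, 262 and 411 CPM against 1342, 1119.6 and 1243 CPM, log2 fold change -2.10, SE 0.249, adjusted p = 3.54e-04). Nrp1, the neuropilin of Sema3a, was lower by 1.60 on the log2 scale (66.0, 88.0 and 61.5 CPM against 234, 181 and 241 CPM, log2 fold change -1.60, SE 0.169, adjusted p = 2.45e-04). Nrp2 (log2 fold change -0.75, adjusted p = 0.0528), whose libraries overlapped, and Nrcam, the partner of Sema6d at the chiasm (log2 fold change -0.53, adjusted p = 0.0173), were lower by less. Nrp2 passed in the leave-one-out fits only without iRGC replicate 3 or cRGC replicate 3, and its adjusted p was between 0.118 and 0.139 when any of the other 4 libraries was left out. The receptor tyrosine kinases Met (log2 fold change 2.57, adjusted p = 0.00166) and Erbb2 (2.49, adjusted p = 6.55e-04), which associate with B-type plexins, and Kdr (2.12, adjusted p = 2.05e-04), a partner of Plxna1 in Sema6d reception that also stands in the endothelial list, were higher in iRGCs. The part of endothelial cells in the level of Kdr was not tested.

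Of 30 intracellular effectors, 4 were higher in iRGCs (Rhoa, Rras, Mical1 and Rock2), 19 were lower and 7 did not pass, beside 23.3% higher and 23.1% lower of all tested genes. The count of higher effectors was 2 without cRGC replicate 1 or cRGC replicate 2 and 1 with iRGC replicate 3 alone. Mical1 did not pass without iRGC replicate 1 (adjusted p = 0.176), iRGC replicate 3 (0.107), cRGC replicate 1 (0.243) or cRGC replicate 2 (0.127). All 5 collapsin response mediator proteins, the cytosolic relays of Sema3a that are abundant in young neurons, were lower, with log2 fold changes of -1.76 (Crmp1), -1.66 (Dpysl5), -1.59 (Dpysl3), -1.34 (Dpysl2) and -1.09 (Dpysl4). Crmp1 stood at 422, 597 and 909 CPM in iRGC replicates 1 to 3 and at 2301, 2083 and 2164 CPM in cRGC replicates 1 to 3. The kinases Pak1 (-1.42) and Limk2 (-1.26), which act on actin through cofilin, were lower, as were the GTPases Rnd1 (-1.55), a binding partner of plexins, and Mras (-1.11), and the actin-oxidizing enzyme Mical3 (-1.14). Rras, a substrate of the plexin GAP domain, was low and higher in iRGCs (4.27, 6.42 and 4.28 CPM against 2.00, 2.35 and 2.42 CPM, log2 fold change 1.15, adjusted p = 0.0603). Neither Rnd1 nor Rras passed without iRGC replicate 2 (log2 fold changes of -1.29 and 0.92, adjusted p = 0.1099 and 0.209) or without any 1 of the cRGC libraries. Of 6 proteins that bind the semaphorin tails, 4 were lower in iRGCs (Dlg4, the gene of PSD-95, at -1.16, Evl at -1.03, Ncdn at -0.92 and Enah at -0.53), Abl1, which binds the tail of Sema6d, was higher at 0.35, and Gipc1, which binds that of Sema4c, was at 0.06 (adjusted p = 0.737).

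**Figure D5:**
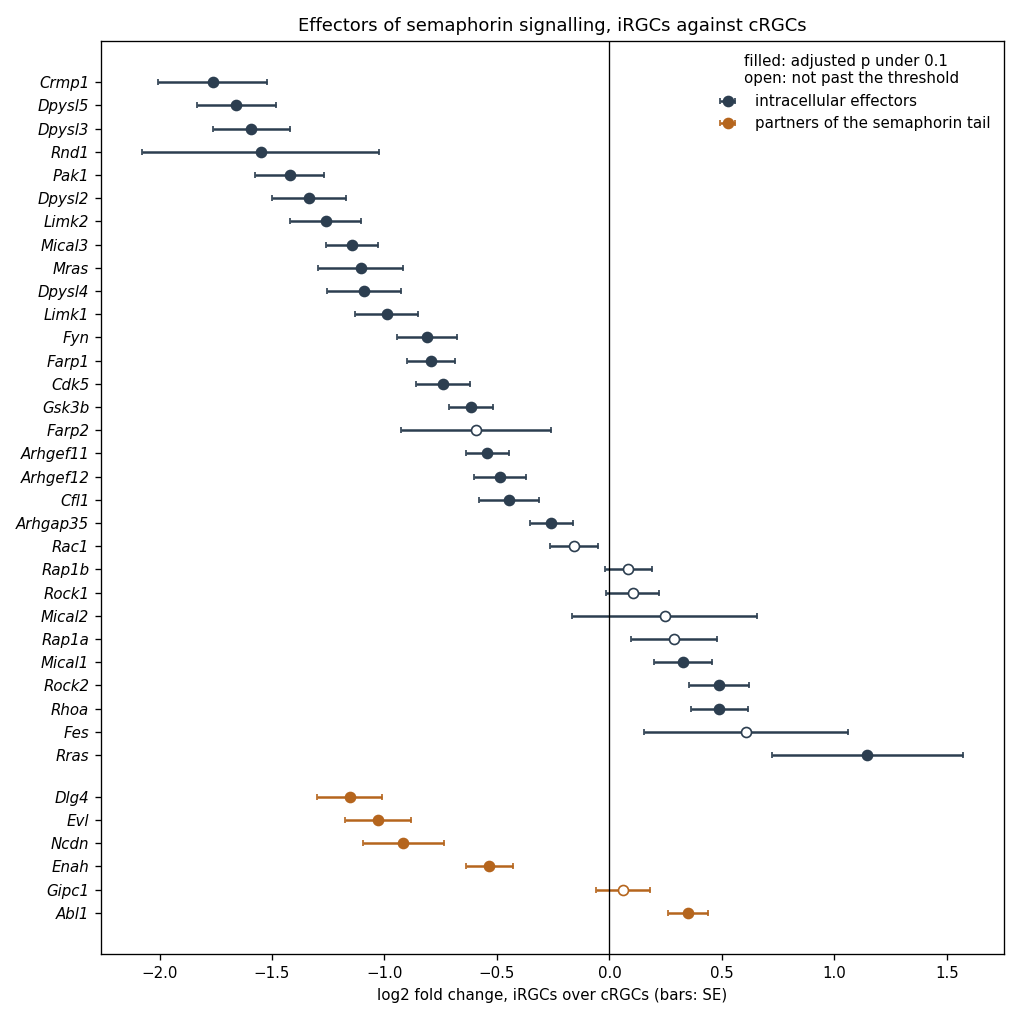
Log2 fold changes of iRGCs over cRGCs (horizontal axis, bars are SE, 3 libraries per population) for 30 intracellular effectors of semaphorin signaling and 6 partners of the semaphorin tails, filled where the adjusted p was under 0.1. The 5 collapsin response mediator genes lie left of 0, with Crmp1, Dpysl5 and Dpysl3 the points farthest to the left, and Rras is the point farthest to the right.

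The genes whose pattern over the 6 libraries was most like that of Sema5b, among 10274 genes with a mean of at least 10 CPM, were Olig2, Mn1 and Erf, with Pearson correlations of 0.999 each on log2(CPM + 0.5). Olig2, a transcription factor of neural progenitors, stood at 37.3 ± 1.96 CPM in iRGCs and 6.17 ± 4.03 CPM in cRGCs. Among those most like Sema6c were Fam78b (1.00) and Grin2b (0.999), the latter a glutamate receptor subunit of neurons with 7.84 ± 1.75 CPM in iRGCs and 34.4 ± 3.99 CPM in cRGCs. With 6 libraries in 2 separate clusters and 10274 genes to choose from, such values mostly follow the difference between the populations, and they are given as a description.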

How the data were processed

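Gene counts were deposited by the authors as 1 table per library of whole-number read counts with no normalization. Per the labels, reads were aligned with HISAT2 2.1.0 (mm10) and counted with HTSeq 0.11.1 on Ensembl genes, and the authors used DESeq2 1.26.0. The strand setting of the counting was not given in the sources used here. Reads in no gene (8.21% to 17.1% of the alignments tallied) were left out of library sizes. The lowest share was that of iRGC replicate 3, the rest lying between 13.1% and 17.1%. Mitochondrial genes took 1.46% to 1.83% of counts in iRGC libraries, most in iRGC replicate 3, and 1.28% to 1.34% in cRGC libraries. The 13 accessibility samples were not analysed here.

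Counts were filtered by expression (filterByExpr), scaled by TMM (factors of 1.03 to 1.10 in iRGCs and 0.921 to 0.952 in cRGCs) and tested with the quasi-likelihood test of edgeR 4.0.16 in R 4.3.3, without a replicate block, in 15941 genes. A gene was called at a Benjamini-Hochberg adjusted p under 0.1. The biological coefficient of variation was 36.3%. The procedure was first run on simulated data in which few genes changed, so that run does not test the scaling where many genes differ. CPM values are TMM-scaled, and log2 fold changes set iRGCs over cRGCs. Exon lengths and overlaps came from GENCODE M21, which matched 46574 of 47069 genes, and promoters from RefSeq (GRCm38.p6).

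The 10 members, the gene lists and the tests were chosen with earlier results of these data known. Beyond the members, the text names Sema4a and Sema6b, all plexins and neuropilins, the pathway genes past an absolute log2 fold change of 1 (at most 25 by size), the most abundant, the defining and the 2 most changed genes of each marker list, the genes behind the labels and the 3 genes most like Sema5b and like Sema6c. Some genes that this rule names are not reported here. Other genes named (those that were alone in a count or in a stated direction, and Dpysl4, Evl, Esam, Egfl7, Mical1 and the tail partners) were chosen after their values were seen. Alternatives were DESeq2 size factors, upper quartile factors, library totals, DESeq2 1.42.0, limma 3.58.1 (voom), no filter, at least 10 counts in every library, other thresholds, the longest transcript as gene length, a replicate block each library left out in turn and, added after the data were seen, iRGC replicate 3 alone. Each library's depth limits the precision of low genes, and a count of 0 allows up to 3.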

Additional observations from a re-analysis of the deposited data

How the results depend on the processing

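No direction of the 10 semaphorins turned under any alternative. Library totals alone moved the median of all genes to 0.20 on the log2 scale, changed the split of all calls from 50.1% higher and 49.9% lower to 64.2% and 35.8%, and gave -0.25 for Sema4c (adjusted p = 0.109), -0.15 for Sema5a (adjusted p = 0.422) and 18 pathway genes higher in place of 10. Requiring an absolute log2 fold change above 1 left 5 members lower, 6 pathway genes higher and 21 lower, and 12.1% and 11.0% of all tested genes. Without a filter, 24342 genes were tested and 14.7% were higher and 14.3% lower. At an adjusted p under 0.05 the call of Sema5a was lost (-0.35, adjusted p = 0.0891). The cause of these changes was not tested beyond what each setting removes or rescales. Leaving out each library in turn gave 2 to 2 members higher and 7 to 8 lower, 8 to 10 pathway genes higher and 31 to 35 lower, 18.8% to 21.2% of all genes higher and 18.2% to 24.1% lower, and log2 fold changes of -0.48 to -0.22 for Sema5a, 1.73 to 2.29 for Sema4d and 2.25 to 3.14 for Sema5b. With iRGC replicate 3 alone, added after seeing the data, 6 pathway genes were higher, and Sema4b (-0.54, adjusted p = 0.136) and Sema5a (-0.13, adjusted p = 0.580) did not pass. By the longest transcript, 18 of the 20 levels per kilobase moved by more than their SD.

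Libraries with the same replicate number did not deviate together (correlations of -0.0121, -0.0237 and -0.0550). Such values cannot show whether these libraries were sorted or prepared together. With the replicate number as a block, 2 members were higher and 8 lower, 8 pathway genes were higher and 35 lower, 20.8% and 21.5% of all genes were called, and the adjusted p of Sema5a was 0.0996.

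With 3 libraries per population the precision of these values is limited. Slc6a4 in iRGC replicates 1 and 2 was not above every cRGC library, and markers of other cell types differed between the populations. Sema5b in cRGCs rests on 83 to 343 reads per library.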
